A study of Mus musculus with 31 samples.

Results

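Of 24594 gene rows in the count table, 8 were described across 31 libraries: the S100 genes S100a4, S100a6, S100a10 and S100a11, the annexins Anxa1 and Anxa2, the actin-capping gene Capg and the intermediate filament gene Vim. All 8 had rows in the file and all 8 passed the filter on low counts. They were selected on earlier results of these same libraries, as genes seen with activated regulatory T cells (Tregs), and were then taken by symbol. The levels, differences and test results of the 8 are therefore given as descriptions of these libraries and support no claim that the group stands apart.

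The libraries are bulk RNA-seq of sorted Tregs from 10 groups, each a tissue of a genotype. KEP mice (K14cre;Cdh1F/F;Trp53F/F, FVB/N background) delete E-cadherin and p53 wherever the keratin 14 promoter drives Cre, which is in epithelium, and they carried a spontaneous mammary tumor of 225 mm2 when sampled. WT mice were littermates with the genotype wt;Cdh1F/F;Trp53F/F, so that both genotypes carry the floxed alleles and WT mice lack Cre and tumors. Blood, spleen, lung and lymph node were taken from both genotypes, the lymph node of KEP mice being the one that drains the tumor, and the tumor came from KEP mice and the mammary gland from WT mice. Each group had 3 libraries, and the WT mammary gland had 4. A KEP library is 1 mouse and a WT library is a pool of 3 mice. The labels give no age. The sort kept live CD45+ CD3+ CD4+ CD8- CD25+ cells, with no gate on the FOXP3 protein. Before it, tumors were dissociated in Collagenase A and lungs in Liberase.

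S100 proteins are small calcium-binding proteins of the EF-hand type that act mostly as pairs and change the activity of the proteins they bind. Annexins bind acidic membrane lipids when calcium rises, and particular S100 proteins couple annexins together at membranes: S100A10 with annexin A2 and S100A11 with annexin A1. Together with actin-capping proteins and vimentin they belong to the machinery that shapes the cell cortex during migration, and in T cells several of them are commonly higher in antigen-experienced than in naive cells.

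The total count per library was 8154765 to 15258958. The sorted cell was checked on its defining genes: in the 24 libraries from the tissues that both genotypes share, the 10 pan-T genes (CD3 chains, Lck and others) stood at 83.3% to 103.8% of their mean level in WT spleen, and Foxp3, the lineage factor of Tregs, lay at 716 to 893 CPM (counts scaled to a common library size with TMM factors) in WT spleen and 1589 to 1747 CPM in KEP blood. In the WT mammary gland the pan-T genes stood at 2.9% to 33.2% of the WT spleen level alongside transcripts of epithelium, milk, fat cells and fibroblasts. In the KEP tumor the pan-T genes stood at 31.6% to 104.5%, alongside transcripts of fibroblasts and macrophages. The epithelial markers summed to 170.5, 203 and 2172 CPM in the tumor libraries, against at most 43.6 in the 24. The milk and fat cell markers summed to 31.4, 42.1 and 4924 CPM, against at most 4.26. Both lists were highest in tumor replicate 3. These 7 libraries thus hold transcripts of cells outside their label, and the results that rest on them come after the others. They also entered the shared estimate of the spread, so differences among the other 24 libraries were tested in 2 fits, over all 31 libraries (15202 genes) and over those 24 alone (12825 genes). The titles carry a date, without saying of which step, and each date belongs to a single genotype, so date and genotype cannot be told apart in any comparison of KEP with WT. A p-value here measures the spread between KEP mice and between WT pools. In the text, a gene is called higher or lower where its Benjamini-Hochberg adjusted p by edgeR's quasi-likelihood test, over all genes of that fit, was under 0.05. In bulk RNA, fewer cells of a type and less RNA per cell cannot be told apart.

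The promoters of S100a4, S100a6, S100a11 and Anxa2 carry different sets of short motifs, with some motifs shared. They are printed so that the start regions of 2 S100 genes without and 1 with an AP-1 motif can be set beside that of Anxa2. RefSeq promoter windows (GRCm38.p6, 250 bases before to 50 after the annotated start) were held for 7 of the 8 genes. S100a4, S100a6 and S100a11 lie on chromosome 3, as does S100a10, and Anxa2 lies on chromosome 9. Capitals mark a TATA box (TATAAA) in S100a4 and Anxa2, the RUNX motif TGTGGT or its complement in S100a6, and the AP-1 motif TGANTCA in S100a11 and Anxa2.
S100a4, chr3:90603520-90603819, plus strand: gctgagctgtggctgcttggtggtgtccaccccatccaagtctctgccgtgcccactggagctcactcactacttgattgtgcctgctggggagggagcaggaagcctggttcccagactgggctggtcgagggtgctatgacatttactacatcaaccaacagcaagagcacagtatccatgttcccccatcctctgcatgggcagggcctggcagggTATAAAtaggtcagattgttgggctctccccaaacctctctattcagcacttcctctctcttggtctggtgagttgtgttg
S100a6, chr3:90612644-90612943, plus strand: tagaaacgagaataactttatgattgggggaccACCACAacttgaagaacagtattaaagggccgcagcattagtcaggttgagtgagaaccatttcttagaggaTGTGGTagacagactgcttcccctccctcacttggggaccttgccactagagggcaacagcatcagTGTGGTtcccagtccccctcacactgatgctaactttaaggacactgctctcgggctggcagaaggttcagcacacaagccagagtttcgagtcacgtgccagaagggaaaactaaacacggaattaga
S100a11, chr3:93520246-93520545, plus strand: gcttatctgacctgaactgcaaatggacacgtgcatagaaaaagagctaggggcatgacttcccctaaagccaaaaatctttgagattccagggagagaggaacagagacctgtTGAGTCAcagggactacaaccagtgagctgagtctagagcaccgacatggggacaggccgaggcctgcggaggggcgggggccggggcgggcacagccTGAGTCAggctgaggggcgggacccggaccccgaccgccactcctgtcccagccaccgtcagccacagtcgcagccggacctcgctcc
Anxa2, chr9:69453433-69453732, plus strand: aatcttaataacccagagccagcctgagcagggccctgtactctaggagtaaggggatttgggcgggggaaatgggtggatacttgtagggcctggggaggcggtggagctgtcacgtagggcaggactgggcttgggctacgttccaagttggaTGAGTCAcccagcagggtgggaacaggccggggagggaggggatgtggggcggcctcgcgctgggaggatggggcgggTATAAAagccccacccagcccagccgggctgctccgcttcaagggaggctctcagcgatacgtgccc

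In all, 9 motifs were searched on both strands of these windows. The AP-1 motif TGANTCA starts 136 and 38 bases before the S100a11 start and 95 bases before the Anxa2 start, and 7.81% of 32851 promoter windows of the same length hold it. TATAAA was found in S100a4, Anxa1, Anxa2 and Vim, against 13.6% of all windows. TGTGGT was found at 3 places in S100a6, against 16.8% of all windows, and the GC box GGGCGG in S100a11 and Anxa2, against 35.7%. The KLF motif GGGTGTGG was found in Capg, against 3.56%. The ETS motif CCGGAAG, the CRE TGACGTCA, the GAS motif TTCNNNGAA and the NF-kB consensus were found in none of the 7 windows, against 8.86%, 1.79%, 8.30% and 0.155% of all windows. Matches of different motifs were counted separately and could overlap. A match is a description of the letters in a window and not a site of binding.

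By deposited coordinates (GRCm38), S100a4 spans chr3:90603770-90606045, S100a6 chr3:90612894-90614414, S100a10 chr3:93555080-93564643 and S100a11 chr3:93520488-93526287. Anxa1 spans chr19:20373428-20390944, Anxa2 chr9:69453620-69491795, Capg chr6:72544391-72562983 and Vim chr2:13573927-13582826. All 8 are protein-coding genes. In GENCODE M21, S100a4 overlaps Gm42674 on its own strand, Anxa1 overlaps 1500015L24Rik and Anxa2 overlaps Mir3109 and Gm16144, so reads of these 3 members could have been set aside or shared and their values are uncertain to that extent. Of the overlapping genes, 2 have rows in the file, with at most 0.207 CPM for 1500015L24Rik and 0.0688 CPM for Gm16144 in any library.

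**Figure D1:**
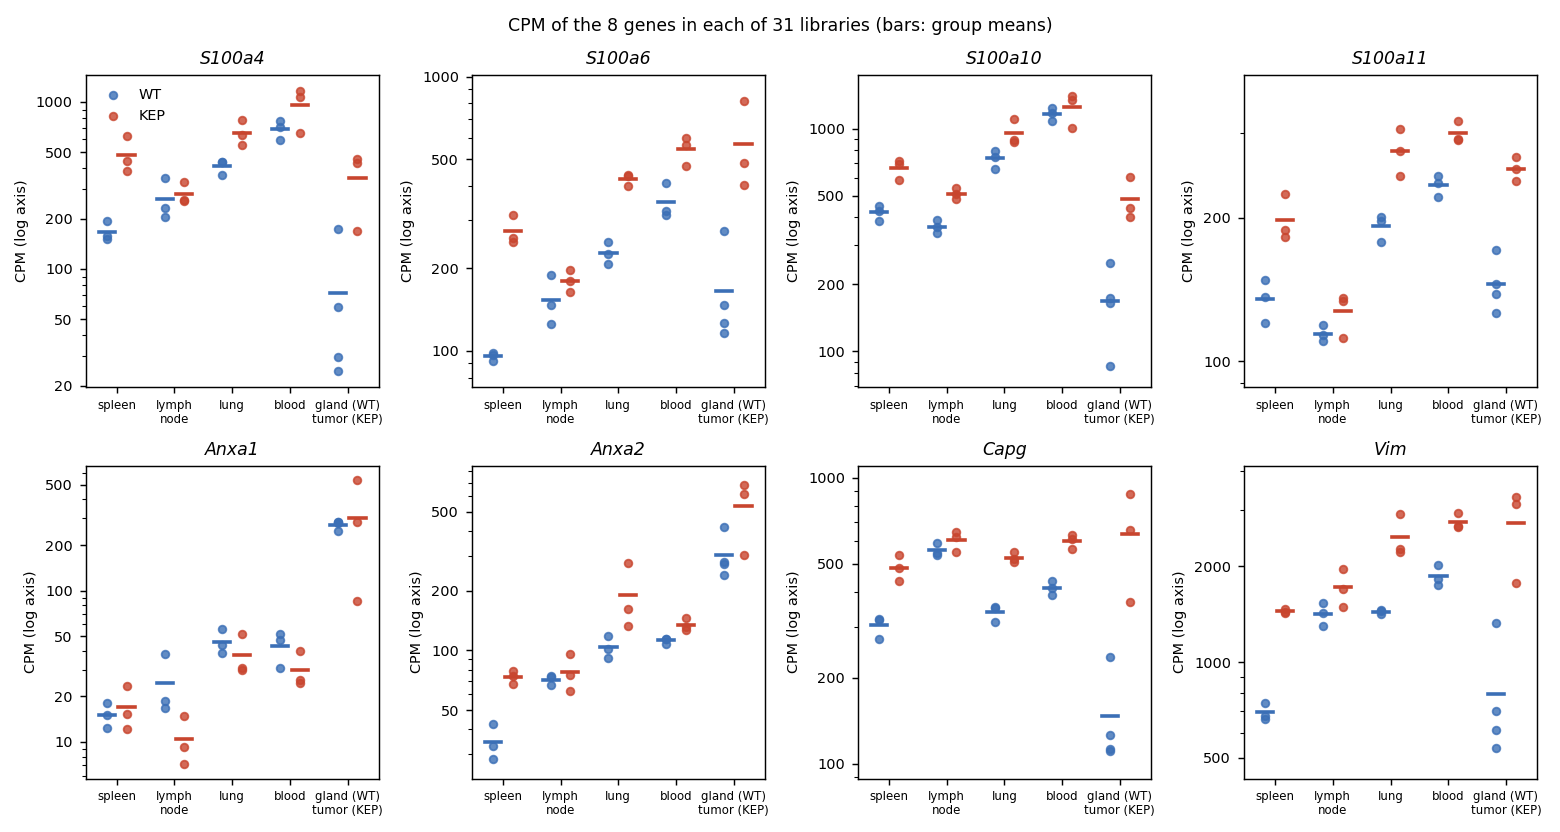
Each panel plots 1 gene: CPM on a log axis for each library, WT in blue and KEP in red, by tissue, with a bar at the group mean. In WT spleen S100a6 sits at 92.2 to 98.1 CPM and in KEP spleen at 249 to 313, with no overlap, whereas Anxa1 overlaps between the genotypes in spleen, lung and blood. Every gland and tumor library lies above all others for Anxa1, with tumor replicate 1 the lowest of them at 85.5 CPM against at most 56.0 elsewhere.

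The levels of the members differed between tissues. In WT mice the means of the 4 S100 members ranked blood over lung over spleen. S100a4, whose protein binds nonmuscle myosin and is tied to cell motility, averaged 167 ± 23.1 CPM in WT spleen, 262 ± 78 in lymph node, 413 ± 40.2 in lung and 690.0 ± 90.1 in blood (SD, n = 3 each). S100a6, the calcyclin gene, had the same order with 95.7 ± 3.15, 154 ± 32.4, 228 ± 21.1 and 348 ± 51.9 CPM. S100a10, which codes for the partner of annexin A2, and S100a11, which codes for that of annexin A1, differed from these 2 in the lymph node: S100a10 was 364 ± 25.4 CPM there against 421 ± 32 in spleen, and S100a11 was 114 ± 4.49 against 135 ± 14 CPM, with libraries of the 2 tissues apart for S100a11 and overlapping for S100a10. Neither gene was called between these tissues.

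Against WT spleen, 7 of the 8 genes were called higher in WT blood, all but Capg, where 4.48% of all tested genes were. The log2 differences by edgeR's quasi-likelihood test were 2.04 (SE 0.49, adjusted p = 0.0104) for S100a4, 1.86 (SE 0.25, adjusted p = 3.76e-05) for S100a6 and 1.47 (SE 0.23, adjusted p = 0.000213) for S100a10. They were 1.69 (SE 0.26, adjusted p = 0.000208) for Anxa2, 1.52 (SE 0.44, adjusted p = 0.0359) for Anxa1 and 1.42 (SE 0.24, adjusted p = 0.000469) for Vim. The call of Anxa1 held in 1 of 6 fits that each left out 1 library, and that of S100a4 in 4 of 6. The same 7 genes were called higher in WT lung, where 15.1% of all genes were, with 1.60 (SE 0.44, adjusted p = 0.00872) for Anxa1 and 1.58 (SE 0.26, adjusted p = 7e-05) for Anxa2 as the largest. S100a4 in lung, 1.30, lost its call in each of the 6 fits without 1 library, and with the date as a fixed block (1.32, adjusted p = 0.0509). In the fit of 24 libraries Capg was called in WT blood as well, at 0.45 (SE 0.09, adjusted p = 0.000687), making 8 of 8 against 13.8% of genes, and the same 7 were called in WT lung against 23.1%.

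Macrophage and monocyte markers were also higher in these tissues, and other marker lists went either way. The 9 macrophage and monocyte markers summed to 8.97 to 13.2 CPM in WT spleen, 42 to 52.2 in WT blood, where C1qa, C1qb and C1qc were at 0, and 100.3 to 172 in WT lung. In KEP mice they summed to 17.2 to 38.1 CPM in spleen, 49.6 to 80.4 in blood, where C1qa was at 0, and 39 to 80.6 in lung. In WT mice the 4 red cell and platelet markers summed to 24.1 to 226 CPM in spleen, 1716 to 7031 in blood and 224 to 302 in lung. The 4 B cell markers summed to 21.4 to 42.3, 35.5 to 46.0 and 13.2 to 15.4 CPM there, and the 5 NK and CD8 T cell markers to 174.5 to 281, 82.0 to 239 and 94.1 to 125. The part of these markers in the tissue differences of the members was not tested.

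The WT lymph node had another set. Anxa2, Capg and Vim were called higher than in spleen, 3 of 8, against 0.934% of all genes. Capg was 546, 594 and 539 CPM in the 3 lymph node libraries against 319, 321 and 274 in spleen, a log2 difference of 0.88 (SE 0.23, adjusted p = 0.0493). All lymph node libraries lay above all spleen libraries for this gene, whose product caps the growing ends of actin filaments. Vim was 1424, 1532 and 1303 CPM against 663, 747 and 678, a difference of 1.03 (SE 0.24, adjusted p = 0.0186). These 3 calls were lost in most fits that left out 1 library, Capg in 6 of 6 and the other two in 5 of 6. Over the 24 libraries S100a6 was called as well, at 0.69 (SE 0.13, adjusted p = 0.000952), making 4 of 8 against 4.56% of genes.

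Against KEP spleen, 5 of 8 were called higher in KEP blood, where 3.85% of genes were: S100a6 (1.00), S100a10 (0.91), S100a11 (0.60), Anxa2 (0.87) and Vim (0.94). Their edgeR adjusted p ran from 0.00171 for S100a11 to 0.0376 for Anxa2. In KEP lung 3 of 8 were called higher, S100a11 (0.48), Anxa2 (1.37) and Vim (0.78), against 14.7% of genes. In the fit of 24 libraries S100a4, at 0.98 (SE 0.23, adjusted p = 0.0047), and Capg, at 0.30 (SE 0.09, adjusted p = 0.0167), were called in KEP blood too, 7 of 8 against 12.3% of genes, and in KEP lung 6 of 8 were called against 23.7%. These fits had no term for the title date, which tissues of a genotype share. With the date as a fixed block S100a6 (0.63, adjusted p = 0.0361), S100a10 (0.51, adjusted p = 0.0158) and Anxa1 (1.15, adjusted p = 0.0219) were called in KEP lung too, making 6 of 8 against 16.9% of genes. In KEP blood Anxa2 lost its call under the block (0.85, adjusted p = 0.102). Of the 5 calls in blood, S100a11 held in 6 of 6 fits without 1 library, S100a6, S100a10 and Vim in 2 of 6, and Anxa2 in 0 of 6.

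In the KEP lymph node the S100 members had lower means than in KEP spleen. S100a11 was 134, 112 and 136 CPM in lymph node against 188, 182 and 224 in spleen, and no library of the former reached the latter. Its log2 difference was -0.64 (SE 0.11, adjusted p = 0.00268), the single call among the 8, where 1.13% of all genes were called lower. Over the 24 libraries S100a4 (-0.76), S100a6 (-0.58) and S100a10 (-0.37) were called lower too, 4 of 8 against 5.72% of genes, and Capg was called higher, at 0.33 (SE 0.09, adjusted p = 0.0149), 1 of 8 against 5.35%. Anxa2 was 0.10 and Vim 0.26 in this fit, neither of them called. The comparisons with spleen in a genotype share that genotype's spleen libraries, so their values are not independent of one another. Scaling all 31 libraries to the pan-T genes left fewer calls over all genes in these comparisons. With it 2 members were called in WT blood, against 0.572% of genes called higher, and 1 in WT lung, against 4.08%. None was called in WT lymph node, KEP blood, KEP lung or KEP lymph node against spleen, where 0.283%, 0.342%, 3.32% and 0.132% of genes were called in either direction. With that scaling over the 24 libraries, a setting added after seeing the data, every call given above over 31 libraries was kept. It called 2173 of 12825 genes higher in WT blood, 3839 in WT lung, 570 in WT lymph node, 2274 in KEP blood and 3399 in KEP lung. In KEP lymph node it called 949 higher and 470 lower.

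**Figure D2:**
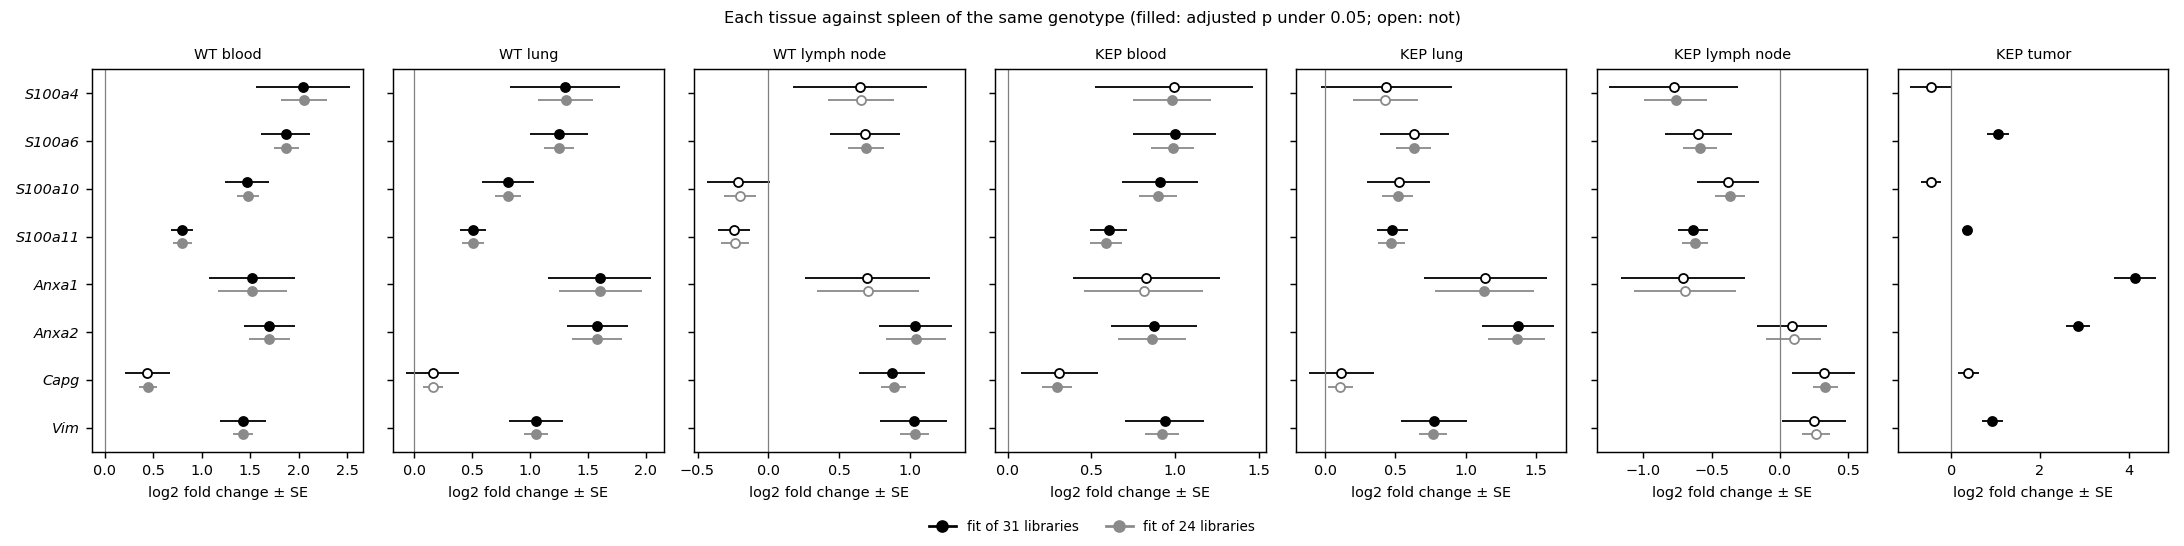
Each panel plots log2 fold change ± SE for the 8 genes in 1 tissue against spleen of the same genotype, over 31 libraries in black and over 24 in grey, filled where the adjusted p is under 0.05. In WT blood the 8 black points lie between 0.44 (Capg) and 2.04 (S100a4), and in the KEP lymph node S100a11 is the filled black point at -0.64. In the KEP tumor panel S100a4 and S100a10 lie below 0. Their values turn to 0.24 and 0.39 when libraries are scaled to the pan-T genes, a setting that is not plotted.

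Most members were higher in KEP than in WT spleen. S100a6 was 92.2, 96.9 and 98.1 CPM in the 3 WT spleen libraries and 258, 249 and 313 in the 3 KEP ones. S100a4 was 194, 158 and 150.3 CPM in WT and 442, 384 and 622 in KEP. For both genes the lowest KEP library lay above the highest WT library. Vim was 663, 747 and 678 CPM in WT spleen and 1426, 1439 and 1468 in KEP, and Anxa2 was 28.3, 33.2 and 42.5 and 74.4, 78.7 and 67.4 CPM. These groups did not overlap either. S100a10 was 449, 386 and 427 CPM against 694, 586 and 717, S100a11 120.3, 137 and 148 against 188, 182 and 224 and Capg 319, 321 and 274 against 484, 436 and 536, again with KEP libraries above WT libraries throughout. Anxa1, the gene of a glucocorticoid-regulated anti-inflammatory annexin, was the exception, with 15, 12.3 and 18 CPM in WT and 12.2, 15.3 and 23.5 in KEP, which overlap.

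For 7 of the 8 genes, then, the spleen groups were apart with KEP higher, where 12.3% of all tested genes showed that pattern. The edgeR test over 31 libraries called 3 of them higher, against 0.434% of genes. S100a6 was at 1.51 (SE 0.25, adjusted p = 0.00308), S100a11 at 0.55 (SE 0.11, adjusted p = 0.0203) and Vim at 1.05 (SE 0.24, adjusted p = 0.0403). S100a4 had the largest difference but also the widest error, 1.53 (SE 0.48, adjusted p = 0.232). All 7 were called in the fit of 24 libraries, against 3.30% of genes, with 1.53 (SE 0.24, adjusted p = 0.000679) for S100a4, 1.51 (SE 0.13, adjusted p = 1.23e-07) for S100a6 and 1.05 (SE 0.10, adjusted p = 3.76e-07) for Vim. KEP spleen replicate 3 was the highest of its group for S100a4, S100a6, S100a10, S100a11, Capg, Vim and Anxa1. Without it S100a6 was 1.40 (adjusted p = 0.0254), S100a11 0.45 (adjusted p = 0.22), S100a4 1.30 and Vim 1.03 (adjusted p = 0.18). S100a6 kept its call in 6 of 6 such fits, S100a11 in 2 of 6 and Vim in 0 of 6. With pan-T scaling of all 31 libraries no member was called between the genotypes in spleen or lung, where 0.0329% and 0% of all genes were. With that scaling over the 24 libraries, a setting added after seeing the data, 7 were called higher in spleen against 2.4% of genes, 5 in lung against 4.94% and 4 in blood against 7.97%. None was called in lymph node, where 0.663% of genes were called in either direction.

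That library also held the most neutrophil transcripts. The 8 neutrophil markers summed to 0.602 to 63.3 CPM in KEP spleen and 0 to 0.188 in WT spleen, where S100a9, Csf3r, Cxcr2, Retnlg, Mmp8 and Camp were at 0. The macrophage and monocyte markers, 9 of 10 with a row, summed to 17.2 to 38.1 CPM in KEP and 8.97 to 13.2 in WT spleen with no marker at 0 throughout either group. The 7 fibroblast markers summed to 4.27 to 5.31 and 2.35 to 3.34 CPM, with Lum and Pdgfra at 0 in both groups. The 4 Treg genes (Foxp3, Il2ra, Ctla4 and Ikzf2) summed to 1692 to 2038 CPM in WT spleen and 2412 to 3082 in KEP spleen. The 5 NK and CD8 T cell markers went the other way, with 174.5 to 281 CPM in WT and 84.0 to 168 in KEP spleen. The part of any of these in the S100 and annexin differences was not tested.

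**Figure D3:**
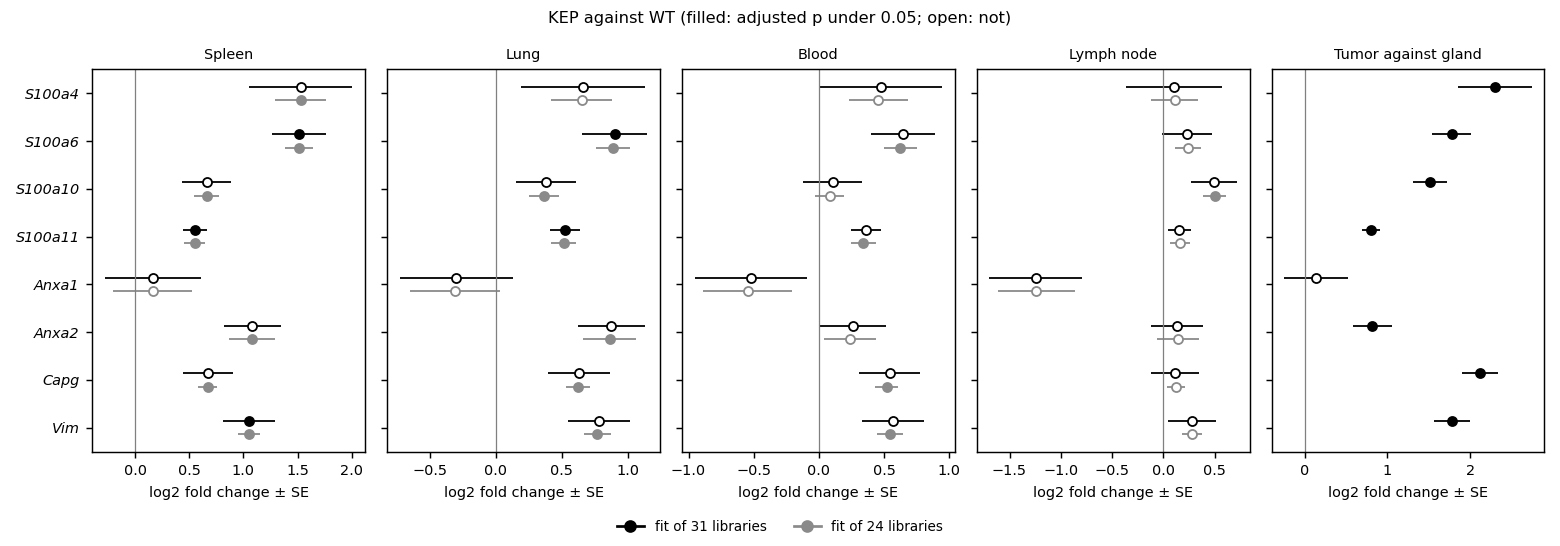
Each panel plots log2 fold change ± SE of KEP over WT for the 8 genes, over 31 libraries in black and over 24 in grey, filled where the adjusted p is under 0.05; the horizontal ranges differ between panels. In spleen the 8 black points lie between 0.17 (Anxa1) and 1.53 (S100a4) and in the lymph node Anxa1 lies at -1.24, unfilled. In the tumor against gland panel 7 points are filled. Their values all turn negative when libraries are scaled to the pan-T genes, a setting that is not plotted.

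In lung, S100a6 was 207, 249.5 and 226 CPM in WT and 436, 399.5 and 437 in KEP, and S100a11 was 178, 197 and 200.2 and 307, 245 and 275. Both were called over 31 libraries, with 0.90 (SE 0.25, adjusted p = 0.0468) and 0.52 (SE 0.11, adjusted p = 0.0139), 2 of 8 against 1.66% of genes. The call of S100a6 was lost in each of 6 fits without 1 library, and that of S100a11 in 2 of 6. Anxa2 was 91.3, 101 and 118 CPM in WT and 275, 162 and 132 in KEP lung, a difference of 0.87 (SE 0.26, adjusted p = 0.0587) that was 0.51 without KEP lung replicate 1, its highest library. Vim was 1449, 1462 and 1413 CPM in WT and 2929.7, 2264 and 2226 in KEP, and Capg was 314, 351 and 354 and 508, 518 and 549. The groups were apart with KEP higher for 7 of 8 members, where 14.5% of genes were, and overlapped for Anxa1 (56, 38.5 and 43.5 CPM in WT, 29.7, 30.7 and 51.8 in KEP). Over the 24 libraries 6 of 8 were called, against 9.61% of genes, with S100a4 at 0.65 (SE 0.23, adjusted p = 0.0554). In KEP lung the Treg genes summed to 5326 to 5717 CPM against 3465 to 4157 in WT lung. The macrophage and monocyte markers summed to 39 to 80.6 CPM in KEP against 100.3 to 172 in WT, with no marker at 0 throughout. Neutrophil markers summed to 2.59 to 27.1 CPM in KEP and 0.452 to 5.34 in WT lung, with Camp at 0 in both. The 5 NK and CD8 T cell markers summed to 49.9 to 82.0 CPM in KEP and 94.1 to 125 in WT lung. The part of these in the lung differences was not tested.

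KEP blood had the highest mean of S100a4, S100a10, S100a11 and Vim among the 10 groups. Libraries of the next group in order overlapped with it, WT blood for S100a4 and S100a10, KEP lung for S100a11 and KEP tumor for Vim. S100a4 was 771, 707 and 593 CPM in WT and 1072, 648 and 1166 in KEP blood. KEP blood replicate 2 lay inside the WT range. The labels give fewer sorted cells for it than for the other KEP blood libraries. Every WT blood library also had fewer sorted cells than KEP blood replicates 1 and 3. WT blood replicate 2 had the fewest of all blood libraries, and its 707 CPM of S100a4 lay between the other WT values. The part of cell number in the blood values was not tested. S100a10 overlapped too, at 1236, 1171 and 1082 and 1401, 1006 and 1343 CPM. S100a6 was 408, 314 and 323 CPM in WT and 564, 473 and 600.2 in KEP, S100a11 237, 245 and 221 and 292, 291 and 319, Capg 437, 413 and 389.5 and 562, 630.0 and 612, and Vim 2027, 1748 and 1822 and 2678, 2951 and 2665. These 4 genes and Anxa2 (108 to 115 CPM in WT, 126 to 146 in KEP) had KEP above WT libraries, 5 of 8 against 16% of genes. None of the 8 was called over 31 libraries, where 4.32% of genes were called in either direction. At an unadjusted p under 0.05 S100a6, S100a11, Capg and Vim passed, and these 4 were the ones called over the 24 libraries, against 9.88% of genes, with 0.63 (SE 0.13, adjusted p = 0.00133) for S100a6 and 0.52 (SE 0.09, adjusted p = 0.000301) for Capg. The Treg genes summed to 1989 to 2704 CPM in WT and 3539.8 to 4399 in KEP blood. The 4 red cell and platelet markers summed to 1716 to 7031 CPM in WT and 1894 to 3786 in KEP blood, with none at 0, and the 8 neutrophil markers to 0.52 to 1.66 and 0.836 to 22.2 CPM, with S100a8, Retnlg and Mmp8 at 0 in WT. The 5 NK and CD8 T cell markers summed to 82.0 to 239 CPM in WT and 43.7 to 139.7 in KEP blood, which overlap. The part of these markers in the blood differences was not tested. Anxa1 had a mean of 43.3 ± 11 CPM in WT and 30.1 ± 8.60 in KEP blood (SD, n = 3 each), lower on average in KEP but overlapping, with -0.52 (SE 0.43, adjusted p = 0.569).

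In the lymph node most members overlapped between the genotypes. S100a10 was 389.8, 362 and 339 CPM in WT and 544, 482 and 509 in KEP lymph node. It was the 1 member of 8 with every KEP library above every WT library, where 11.3% of genes were, and the 1 called over the 24 libraries, 0.50 (SE 0.11, adjusted p = 0.0255), against 0.663% of genes. S100a4 was 351, 231 and 204 CPM against 258, 256 and 329.7 and S100a6 189, 148 and 125 against 179.5, 164 and 198. Both overlap between genotypes. Anxa1 went the other way, with 38.3, 18.6 and 16.7 CPM in WT and 9.27, 7.16 and 14.7 in KEP, so that every KEP library lay below every WT library. Its difference of -1.24 (SE 0.45, adjusted p = 0.667) was not called over 31 libraries, nor over 24 (adjusted p = 0.129). Over 31 libraries no member was called (0 of 8), where 0.0132% of genes were, and S100a10 and Anxa1 passed an unadjusted p under 0.05. The Treg genes summed to 2400.4 to 3146 CPM in WT and 3158 to 3529.6 in KEP lymph node. The 5 NK and CD8 T cell markers summed to 43.7 to 53.1 CPM in WT and 30.7 to 34.7 in KEP lymph node. The part of these in the lymph node values was not tested.

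Whether a difference between KEP and WT varied by tissue was tested as a difference of differences. Over 31 libraries none of the 8 genes was called for blood minus spleen (0 of 8, 0% of genes), lung minus spleen (0 of 8, 0%) or lymph node minus spleen (0 of 8, 0%). At an unadjusted p under 0.05, 2 members passed for blood, S100a6 and Anxa2, none for lung, and 6 for lymph node, S100a4, S100a6, S100a11, Anxa1, Anxa2 and Vim, all 6 with values below 0. Over all genes, 449, 436 and 249 passed at that level for blood, lung and lymph node. DESeq2 called no gene for blood, 1 for lung and 3 for lymph node. Over the 24 libraries the share of genes called was 0% for blood, 0.0234% for lung and, for lower values in lymph node, 0.125%. S100a6, at -1.27 (SE 0.18, adjusted p = 0.00159), and Vim, at -0.77 (SE 0.14, adjusted p = 0.0231), were the 2 of 8 called there. Their difference between genotypes was smaller in lymph node than in spleen. S100a4 had a lower value with a wider error, -1.42 (SE 0.33, adjusted p = 0.17). The 3 differences share the spleen libraries of both genotypes.

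**Figure D4:**
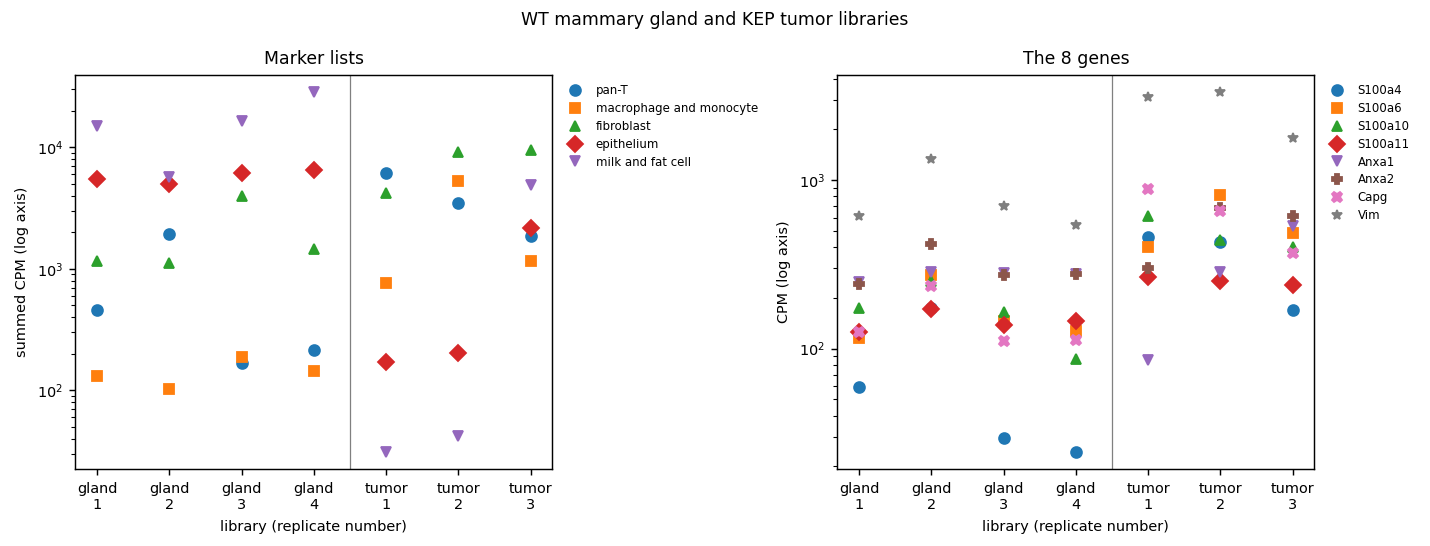
The left panel plots summed CPM of 5 marker lists and the right panel CPM of the 8 genes, both on log axes, in the 4 WT mammary gland and 3 KEP tumor libraries. Pan-T transcripts sit at 169 to 1937 CPM in gland and 1846 to 6107 in tumor, and gland replicate 2, the highest of its group for the pan-T genes, is also the highest gland library for the 8 genes.

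The KEP tumor held the highest mean of Anxa1, Anxa2, S100a6 and Capg among the 10 groups, with wide spreads. S100a4 was 59.1, 173, 29.6 and 24.5 CPM in the 4 gland libraries and 457, 432 and 169 in the 3 tumor libraries, so that tumor replicate 3 and gland replicate 2 overlap. Capg was 126, 236, 111 and 112 CPM in gland and 882, 657 and 368 in tumor, and S100a6 116, 274, 147 and 127 and 403, 815 and 483. Vim was 614, 1329, 704 and 539 CPM in gland and 3136, 3313 and 1768 in tumor. For Capg, S100a6 and Vim the lowest tumor library lay above the highest gland library. S100a10 was 86.3 to 251 CPM in gland and 401 to 609 in tumor, and S100a11 126 to 171 and 239 to 267. Anxa2 was 240.4, 417, 273 and 278 CPM in gland and 303, 679.8 and 613 in tumor. Anxa1 was 248, 284, 283 and 278 CPM in gland and 85.5, 284 and 534 in tumor, with the gland libraries close together and the tumor libraries spread on both sides of them. Pan-T genes stood at 104.5%, 60.0% and 31.6% of the WT spleen level in tumor replicates 1, 2 and 3. Across these Anxa1 rose as the pan-T genes fell, while S100a4, S100a10, S100a11 and Capg fell with them. S100a6, Anxa2 and Vim were highest in replicate 2.

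Against the gland, 7 of 8 were called higher in the tumor, all but Anxa1, where 23.5% of all genes were. The differences were 2.30 (SE 0.44, adjusted p = 0.000156) for S100a4, 2.12 (SE 0.22, adjusted p = 5.13e-08) for Capg, 1.78 (SE 0.22, adjusted p = 6.21e-07) for Vim and 0.14 (SE 0.38, adjusted p = 0.779) for Anxa1. When libraries were scaled to the 10 pan-T genes, all 8 differences turned negative, from -0.40 for S100a4 (adjusted p = 0.235, not called) to -2.84 for Anxa1, with S100a6 at -1.31 and Vim at -1.44, and the median over all genes was -3.41. Per unit of pan-T transcript, then, 7 members were called lower in tumor than in gland libraries, as were 92.1% of all genes, so that this count is near the background. Without gland replicate 2 S100a4 was 3.24 and Capg 2.47, and without tumor replicate 3 Anxa1 was -0.57 (adjusted p = 0.208). Anxa2 lost its call without tumor replicate 2 (0.60, adjusted p = 0.0557).

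Transcripts of other cells also differed between these libraries. The 7 fibroblast markers summed to 1116 to 3993 CPM in gland and 4199.8 to 9527 in tumor, with none at 0, against at most 19 CPM in any of the other 24 libraries. The 9 macrophage and monocyte markers summed to 102 to 187 CPM in gland and 767 to 5255 in tumor, and the 8 epithelial markers to 4971 to 6433 and 170.5 to 2172 CPM, with none of either list at 0. The 4 smooth muscle and myoepithelial markers summed to 1943 to 3612 CPM in gland and 96.5 to 281 in tumor. The 7 milk and fat cell markers summed to 5652 to 28181 CPM in gland and 31.4 to 4924 in tumor, with Plin1 at 0 in the tumor group. The 7 dendritic cell markers summed to 189.5 to 395 CPM in gland and 778 to 3516 in tumor, with none at 0. The sort was set to keep CD45+ CD3+ CD4+ cells, and these transcripts were found in its libraries all the same. The part of these transcripts in the tumor and gland levels was not tested.

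Against KEP spleen, 5 of 8 were called higher in the KEP tumor, where 35.6% of genes were. Anxa1 had 4.15 (SE 0.48, adjusted p = 1.11e-07), Anxa2 2.86 (SE 0.27, adjusted p = 5.53e-09), S100a6 1.05 (SE 0.25, adjusted p = 0.000789), Vim 0.92 (SE 0.24, adjusted p = 0.0017) and S100a11 0.35 (SE 0.11, adjusted p = 0.00847). S100a4 (-0.45) and S100a10 (-0.46) lay lower in tumor without being called, and with pan-T scaling both were above 0, at 0.24 and 0.39. With the date as a fixed block S100a10 was called lower (-0.45, adjusted p = 0.0145). The median over all genes was 0.13 here. Tumor and gland were apart from the 24 other libraries for Anxa1 and, apart from 1 library, for Anxa2: the lowest tumor library held 85.5 CPM of Anxa1 against at most 56.0 in the 24, and the lowest gland library 240.4 CPM of Anxa2 against 275 in KEP lung replicate 1.

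Per kilobase of annotated exon inside the deposited gene bounds, levels can be set between genes. For S100a6 that length was 0.9 kb, against 1.367 kb of exon in GENCODE M21 without those bounds. Its place in the order therefore depends on this choice. In KEP blood S100a4 had the highest value, 1647 ± 473 CPM per kilobase, followed by S100a10 with 1031 ± 176, S100a6 with 606 ± 72.9, S100a11 with 588 ± 30.7 and Vim with 583 ± 34.1. The last 3 lie within 1 SD of each other. Anxa2 had 36.1 ± 2.81 and Anxa1 10.3 ± 2.95, the lowest. In WT spleen S100a10 came first with 347 ± 26.4 and S100a4 second with 286 ± 39.5 CPM per kilobase. In the KEP tumor S100a6 came first by the shorter length, with 629.9 ± 243, ahead of S100a4 with 603.5 ± 273. Anxa1 stayed last there, with 103 ± 77.2.

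Across the 24 libraries of the 4 shared tissues, S100a4 and S100a6 had the most alike profiles of any pair of members, with r = 0.97 on log2 CPM (0.99 over the 8 group means). S100a10 and S100a11 followed each other at r = 0.93, and Anxa2 and Vim at 0.91. The values of Anxa1 with the other members ran from -0.17 with Capg to 0.62 with S100a4. Those of Capg ran from 0.14 with S100a11 to 0.46 with S100a6 among the S100 members and reached 0.70 with Vim, as did S100a11 with Vim. These correlations are descriptions over libraries that share tissues, genotypes and dates, and they carry no p.

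Of 15190 other genes, the 10 most like the mean profile of the 8 over those libraries were Lgals1 (r = 0.96), Cass4, Myadm, Osbpl3, Plxdc1, Il1rl1, Map6, Fam129a, Capn2 and Alcam (r = 0.93). Lgals1, the gene of galectin-1, was 192 CPM in WT spleen and 382 in KEP spleen, and 447 and 621 CPM in WT and KEP blood on average. Il1rl1, the gene of the IL-33 receptor ST2, was 136 and 446 CPM in WT and KEP spleen and 585 and 1291 in WT and KEP lung.

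**Figure D5:**
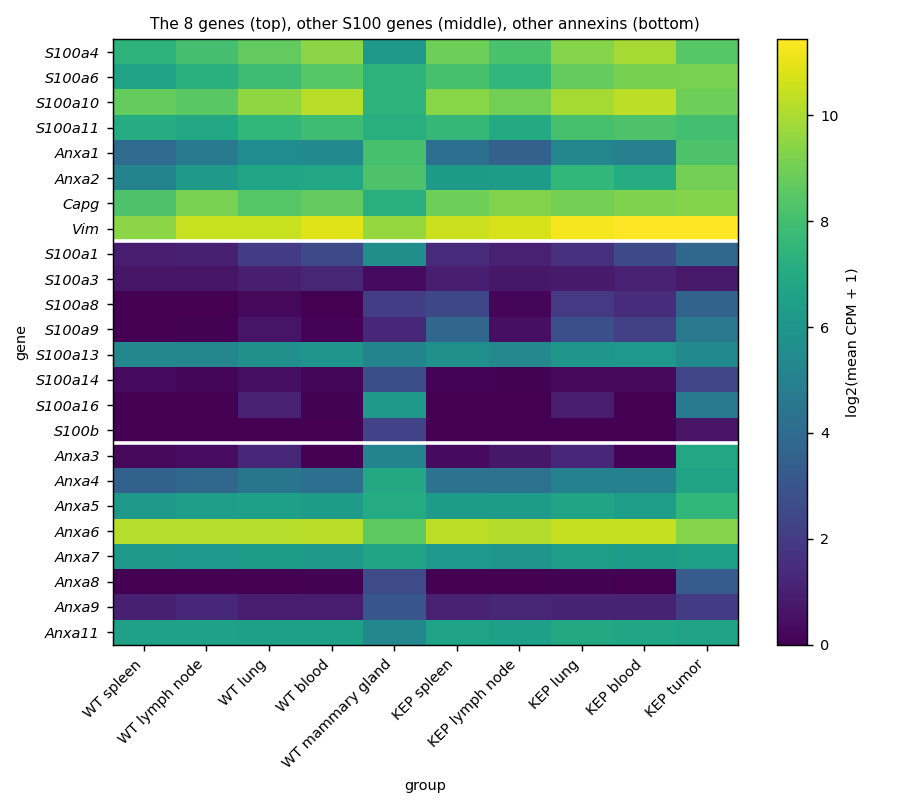
Each line is a gene and each column a group, and color gives log2 of the mean CPM plus 1. The 8 genes are at the top, the 8 other S100 genes that passed the filter in the middle and the 8 other annexins that passed at the bottom, and most other S100 genes are dark in the 8 groups of the 4 shared tissues, with S100a13 brighter.

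Of 13 other S100 genes, 12 had a row and 8 passed the filter. Between KEP and WT none of the 8 was called in blood, spleen, lung or lymph node over 31 libraries. Of 15202 genes, 332, 66, 253 and 2 were called higher in these tissues and 325, 2, 216 and 0 lower. S100a13, the most abundant of them in the 4 shared tissues, was 36.4 to 43.6 CPM in WT and 45.9 to 57 in KEP spleen, with a difference of 0.40 (SE 0.17, adjusted p = 0.509). S100a8 and S100a9, which form the calprotectin of neutrophils, were 0.0753 to 12 and 0.151 to 35.3 CPM in KEP spleen and 0 to 0.0939 and 0 in every library in WT spleen. Several of the 8 were at or near 0 CPM in spleen, and no median over them is given. In WT blood against spleen 2 of 8 were called higher, where 4.48% of genes were: S100a1 at 2.51 (SE 0.47, adjusted p = 0.00128) and S100a13 at 0.63 (SE 0.17, adjusted p = 0.023).

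Among the other annexins, 9 of 10 had a row and 8 passed the filter. Anxa6 was the most abundant of them, with 1152 ± 98.1 CPM in WT and 1259.8 ± 82.4 in KEP spleen, a difference of 0.13 (SE 0.15, adjusted p = 0.94). Anxa4 was called higher in KEP than in WT blood, where 332 of 15202 genes were, at 0.89 (SE 0.20, adjusted p = 0.0131), the single call among the 8 in the 4 tissues. It was 16.9 ± 3.53 CPM in WT and 31.4 ± 5.39 in KEP blood. In the tumor, where 35.6% of genes were called higher than in KEP spleen, Anxa4 (2.37) and Anxa5 (1.27) were among them, and Anxa6 (-0.92) was called lower. Anxa3 and Anxa8 were at or near 0 CPM in KEP spleen, so no fitted difference is given for them.

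Of the 9 actin-capping and gelsolin genes that passed, Capza1, a subunit of the heterodimeric capping protein, was called higher in KEP than in WT blood at 0.56 (SE 0.11, adjusted p = 0.00802) and lung at 0.57 (SE 0.11, adjusted p = 0.0088), and Gsn, gelsolin, in blood at 0.87 (SE 0.25, adjusted p = 0.0479). Of 15202 genes, 332 were called higher in blood and 253 in lung. None of the 9 was called in spleen or lymph node. Anxa4, Capza1 and Gsn, like Bach2 and Tcf7 among the resting genes, overlap other annotated genes, and their counts are uncertain to that extent. Among 7 genes of other intermediate filaments and their linkers none was called between genotypes in the 4 tissues, but Lmna, the gene of lamin A, was called higher in WT blood at 2.65 (SE 0.30, adjusted p = 4.32e-06) and WT lung at 3.34 (SE 0.31, adjusted p = 2.04e-08) than in spleen. It was likewise called higher than in KEP spleen in KEP blood (1.35) and KEP lung (2.48).

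Among 10 binding partners and receptors of the members, Ahnak, which codes for a giant scaffold bound by the S100A10 and annexin A2 complex, was called higher than in spleen in WT blood at 1.27 (SE 0.25, adjusted p = 0.00231), WT lung (0.93), KEP blood (0.99) and KEP lung (0.68). Fpr1 and Fpr2, formyl peptide receptors of which the second binds annexin A1, were 0.801 to 2.48 and 0.668 to 2.48 CPM in WT lung and 0.868 to 3.38 and 1.18 to 9.16 in the tumor. Ager, which codes for the receptor RAGE bound by several S100 proteins, was the 1 called between genotypes, lower in KEP than in WT blood at -1.15 (SE 0.32, adjusted p = 0.0424), where 325 of 15202 genes were called lower. Myh9, the myosin bound by S100A4, was 2507 ± 173 CPM in WT and 2469 ± 128 in KEP spleen and was not called between genotypes in the 4 tissues.

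These lists, like the members, were drawn up with results of these libraries known. For the 15 effector Treg genes, the median difference of KEP over WT was 0.48 in spleen, 0.47 in lung, 0.41 in blood and 0.38 in lymph node, beside 0.86, 0.65, 0.42 and 0.14 for the 8 members and 0.00 over all genes in each tissue. Prdm1, the gene of BLIMP-1, was called higher in KEP blood at 1.09 (SE 0.25, adjusted p = 0.0174) and lung at 1.05 (SE 0.25, adjusted p = 0.0251), the 1 call of 15 in each, where 332 and 253 of 15202 genes were called higher. Lgals3, the galectin-3 gene, was called higher in WT blood than in WT spleen, where 4.48% of genes were, at 2.31 (SE 0.35, adjusted p = 0.000146), as were Crip1, Lgals1 and Itgb1. Of the 9 resting T cell genes, Bach2 at -1.24 (SE 0.34, adjusted p = 0.0363) and Tcf7 at -1.48 (SE 0.43, adjusted p = 0.0479) were called lower in KEP than in WT blood and Klf2 in lung at -0.88 (SE 0.23, adjusted p = 0.038), with medians of -0.44 in blood and -0.44 in lung. Of 15202 genes, 325 were called lower in blood and 216 in lung. In spleen none of the 9 was called.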

How the data were processed

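RNA from sorted Tregs of 31 libraries was sequenced with a stranded mRNA kit, per the labels' protocols. The deposited table holds raw read counts for 24594 genes with coordinates, and the submitters' processing notes name TopHat, TopHat2 2.1.0, HTSeq and GRCm38. Their roles, the annotation release and the strand setting of the counting are not given in the sources used here. The file held 0 columns of other samples, and totals were 8154765 to 15258958 counts per library, so a gene at 0 is limited by that depth.

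Groups were taken from the labels, and the members and all gene lists were chosen with earlier results of these data known. Counts were tested in R 4.3.3 with edgeR 4.0.16 (TMM factors, filterByExpr with a minimum count of 10, glmQLFit and glmQLFTest, one fit of 10 groups), with Benjamini-Hochberg adjustment over 15202 genes and a threshold of 0.05. CPM values are TMM-scaled. Likeness used Pearson's r of log2 CPM with a prior count of 2. The rule for named genes took all 8 members, up to 4 called genes of smallest p in each list and comparison, the 10 genes most like the members, Foxp3, Il2ra, Ctla4 and Cd3e as a check, and marker genes. The scripts were tested on simulated data. Coordinates are those of the file, and promoters are from RefSeq (GRCm38.p6). Exon lengths and overlaps are from GENCODE M21, with exons cut to the deposited gene bounds for the lengths.

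The main fit and the fit of 24 libraries had no term for the title date, so their p-values are not paired. Pairing by title date entered only as an alternative, the date block. Over 18 same-date pairs, the correlation of deviations from the group means was over 0.1 in 18 for KEP (median 0.265) and in 7 for WT (median 0.0897). No pair of replicates agreed within sampling noise. Alternatives were RLE, upper-quartile and pan-T scaling, no filter, a minimum count of 50, DESeq2 1.42.0, limma-voom (limma 3.58.1), the date as a block, fewer libraries in the fit, and leaving out each replicate.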

Additional observations from a re-analysis of the deposited data

Results flagged for a closer look

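In the 4 WT mammary gland libraries, 2 of the 8 genes had a library far from the other 3. Anxa1 was lowest in gland replicate 1, at 248 CPM, and Capg was highest in gland replicate 2, at 236 CPM. Gland replicate 2 also had the highest pan-T transcripts of its group and, by the labels, the most sorted cells. No gland library had more sorted cells than any tumor library. The part of cell number in the gland and tumor values was not tested. Chance sets apart about 1 in 20 such groups, and 8 were examined. Over the 24 libraries without tumor and gland, the difference between KEP and WT was lower in lymph node than in spleen for S100a6, by a log2 value of -1.27 (edgeR adjusted p = 0.00159), and for Vim, by -0.77 (edgeR adjusted p = 0.0231). Over all 31 libraries neither was called.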

How the results depend on the processing

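Over alternatives other than leaving out a replicate, 1149 values kept their direction and side of the threshold, 87 passed it newly, 40 lost it and 12 changed sign. The counts that follow are of the 8 members called. For KEP against WT in blood (0), DESeq2 called 1, and the 24 libraries, the 24 with pan-T scaling and the compared libraries alone called 4 each. In that order, 491 of 15202, 1267 of 12825, 1022 of 12825 and 878 of 11601 genes were called higher. In spleen (3), the 24 libraries, the 24 with pan-T scaling and the compared libraries called 7 each, and pan-T scaling of 31 libraries 0. There 423 of 12825, 308 of 12825, 455 of 11714 and 5 of 15202 genes were called higher. In lung (2), pan-T scaling called 0, no filter 1, DESeq2 4, the 24 libraries 6, and the 24 with pan-T scaling and the compared libraries 5 each. Genes called higher, in that order, numbered 0 of 15202, 179 of 24422, 466 of 15202, 1233 of 12825, 634 of 12825 and 795 of 11772. In lymph node (0), the 24 libraries and the compared libraries called 1, where 85 of 12825 and 117 of 11667 genes were called higher. For lymph node minus spleen (0), the 24 libraries and the compared libraries called 2 and the 24 with pan-T scaling 1. Genes called lower there numbered 16 of 12825, 10 of 12058 and 4 of 12825. Fewer libraries in the fit also changed which genes were tested, and otherwise the cause was not tested. The 24 libraries with pan-T scaling were a setting chosen after seeing the data.

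Against spleen, pan-T scaling of 31 libraries called 2 in WT blood (7), 1 in WT lung (7), and 0 in WT lymph node (3), KEP blood (5), KEP lung (3) and KEP lymph node (1). Pan-T scaling of the 24 libraries lost none of the calls in these comparisons. The shares over all genes stand with the tissue results above. No filter called 1 in WT lymph node, where 112 of 24422 genes were called higher. In KEP lung, RLE factors called 5, where 2421 of 15202 genes were called higher. DESeq2, the 24 libraries with or without pan-T scaling, and the compared libraries called 6. There 2647 of 15202, 3399 of 12825 with pan-T scaling, 3037 of 12825 without it and 2819 of 11907 genes were called higher. In KEP lymph node the 24 libraries called 5, with pan-T scaling 3, and the compared libraries 4. Over all genes these called 686 higher and 734 lower of 12825, 949 and 470 of 12825, and 907 and 993 of 11775.

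With the date as a fixed replicate block, paired by title date, 6 were called in KEP lung, against 16.9% of genes called higher. The calls of S100a4 in WT lung (1.32) and Anxa2 in KEP blood (0.85) were lost and those of S100a6, S100a10 and Anxa1 in KEP lung and S100a10 in tumor against KEP spleen were gained; the block changed no other call. As a random term the block turned Anxa1 in tumor against gland to -0.22, as did limma-voom without it (-0.22).

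Pan-T scaling called 7 lower in tumor against gland, as it did 92.1% of genes, with S100a4 at -0.40, S100a6 -1.31, S100a10 -1.68, S100a11 -2.51, Anxa1 -2.84, Anxa2 -2.25, Capg -1.16 and Vim -1.44. It turned S100a4 and S100a10 in tumor against KEP spleen to 0.24 and 0.39. The cause was not tested.

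Leaving out 1 replicate at a time gave counts of 1 to 2 for the genotypes in spleen and 0 to 2 in lung. Against spleen it gave 1 to 4 in KEP blood and 0 to 1 in the lymph node of WT mice. Shares over all genes were not kept for these fits. Signs changed for Anxa1 in KEP against WT spleen (-0.15 to 0.35) and in tumor against gland (-0.57 to 0.61). In KEP against WT lymph node they changed for S100a4 (-0.052 to 0.36) and Anxa2 (-0.053 to 0.26), in KEP lymph node against spleen for Anxa2 (-0.090 to 0.22), and for lung minus spleen for S100a11 (-0.10 to 0.069) and Capg (-0.12 to 0.036). With 3 libraries a group, precision is set by the spread between libraries, and depth limits genes near 0 CPM.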
